A study of Mus musculus with 6 samples.

Results

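The transcription factors that set and keep endothelial identity were followed in endothelial cells of mouse mammary tumors, with and without Ets2 in the fibroblasts around them. The set holds 10 genes chosen by name, Sox7, Sox17 and Sox18 (the SOXF group), Foxo1, Foxc1 and Foxc2 (forkhead factors), Gata2, Tal1 and Lmo2 (partners in 1 complex) and Nr2f2. All 10 were measured, out of 18193 genes on the array, by 22 of 45037 probe sets. The probe sets counted were those whose annotation names 1 gene, and each gene was represented by its brightest probe set.

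RNA came from CD31-sorted mammary endothelial cells of FVB/N mice aged 9 weeks. The deleted group (3 samples) had the genotype PyMT;Fsp-cre;Ets2db/loxP and the control group (3 samples) the genotype PyMT;Ets2db/loxP. Both groups therefore carried PyMT (polyoma middle T, an oncogene that causes mammary tumors when made in the epithelium), 1 Ets2 allele without a DNA-binding domain (db) and 1 Ets2 allele flanked by loxP sites, so the controls kept a single functional allele. Cre stood under the promoter of fibroblast specific protein 1, also named S100a4, so the deletion was directed to fibroblasts and the profiled cells were their neighbors. The source field of the control samples speaks of no oncogene, but PyMT stands in their genotype and title, which were followed. The methods call the samples biological replicates.

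SOXF factors are HMG-box proteins that bind the enhancers of endothelial genes, often beside ETS factors, and act in arterial and lymphatic differentiation. Foxc1 and Foxc2 bind next to ETS factors at a composite site in endothelial enhancers, and Foxo1 restrains endothelial growth and metabolism downstream of Akt. Gata2 joins the basic helix-loop-helix factor Tal1 and its bridge protein Lmo2 on DNA in endothelial and blood cells, and Nr2f2 (COUP-TFII) maintains venous identity and cooperates with Prox1 in lymphatic endothelium.

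Of the 10 factors, 6 were higher and 4 lower in deleted than in control samples, none passed the test, and the groups overlapped for every one. With limma over 45037 probe sets, no factor had an adjusted p under 0.05 (adjusted p = 0.9999 for all 22 probe sets of the factors), and 0% of all probe sets did. At an unadjusted p under 0.05 the count was again 0 of 10, beside 1.79% of all genes, and 0 of 10 passed a fold change over 2 as well, beside 0.0934% of all genes. The median difference (deleted minus control, log2 scale, as for every difference below) was 0.07 for the 10 factors and 0.00 for all genes, of which 49.1% were lower in deleted samples. The median size of the difference, regardless of sign, was 0.15 for the factors and 0.11 for all genes. Groups without overlap were found for 0 of 10 factors and for 6.07% of all genes. An exact permutation test cannot go below 0.1 with 3 samples against 3, and the smallest value it gave for any factor was 0.3 (two-sided).

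**Figure D1:**
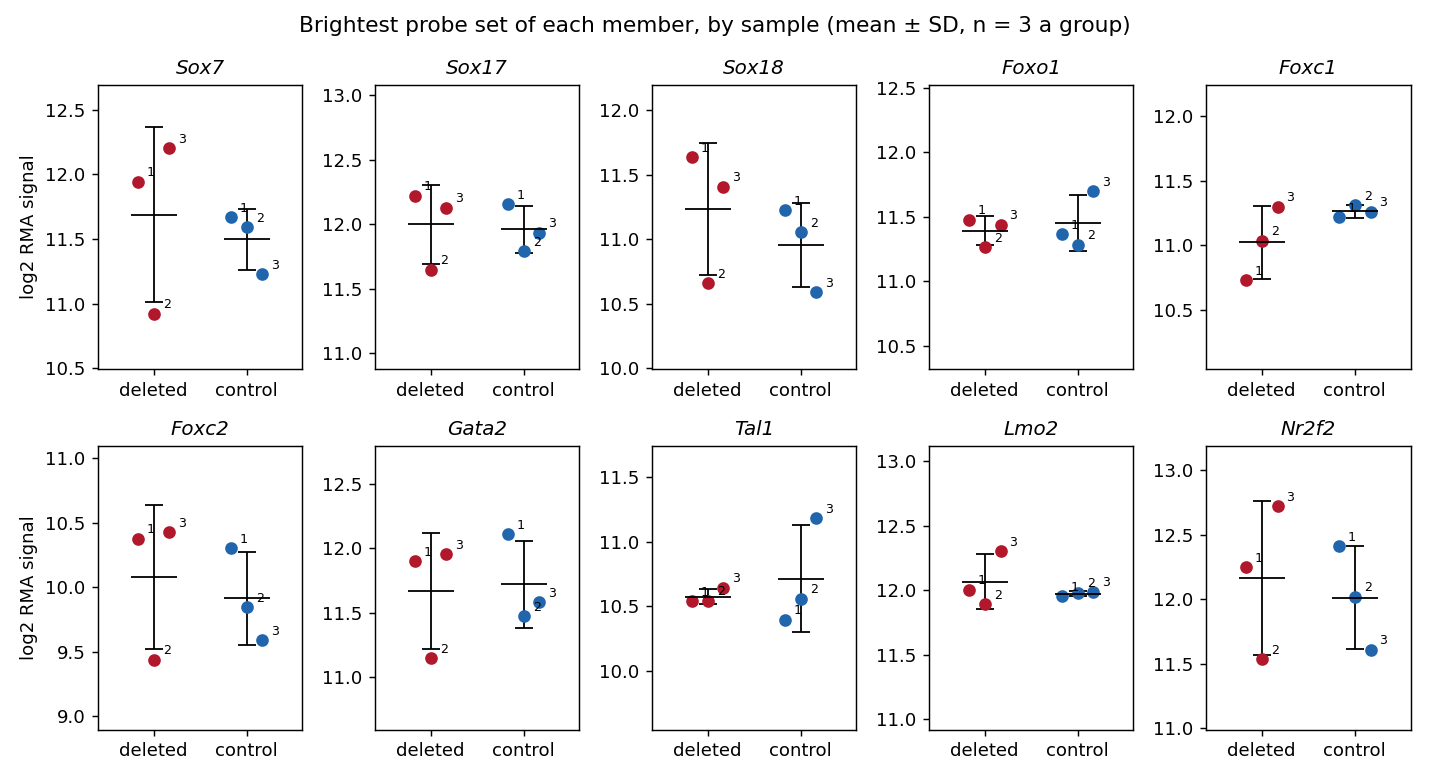
Log2 RMA signal of the brightest probe set of each of the 10 factors in the 3 deleted (red, left) and 3 control (blue, right) samples, numbered by replicate, with the mean and SD of each group. Every panel spans the same log2 range, deleted replicate 2 is the lowest point in 7 of 10 panels, and the groups overlap in all of them.

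Among the SOXF factors, Sox7 had a log2 signal of 11.95, 10.92 and 12.20 in deleted samples, against 11.67, 11.59 and 11.23 in control samples. Its deleted samples thus held both the highest and the lowest value of the 6, and the spread within the deleted group (SD 0.68, n = 3) was wider than within the control group (SD 0.24, n = 3). The difference was 0.19 ± 0.33 (SE), with a 95% interval from -0.59 to 0.98. Sox17, which drives arterial fate, had 12.22, 11.64 and 12.13 in deleted samples and 12.15, 11.79 and 11.93 in control samples. The means lay 0.04 ± 0.20 (SE) apart, with an interval from -0.43 to 0.50. Sox18, which switches on Prox1 when lymphatic cells first form, had 11.64, 10.66 and 11.41 in deleted samples and 11.22, 11.05 and 10.59 in control samples. Its 2 highest values were deleted samples, and the lowest was a control sample. Sox18 had the largest difference of the 10 factors, 0.28 ± 0.29 (SE), and its interval ran from -0.40 to 0.96.

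Sox7 and Sox17 each had a dimmer probe set as well. That of Sox7 read 5.72, 5.20 and 5.70 in deleted samples, against 5.70, 5.76 and 6.02 in control samples, a difference of -0.29 ± 0.19 (SE), opposite in sign to the brightest one. Its signal was under the median over all probe sets (7.03). For Sox17 the difference of the dimmer probe set was 0.14 ± 0.17 (SE), of the same sign as the brightest, which is of a type (x_at) that can also bind other transcripts.

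Of the forkhead factors, Foxc1, active in vessels and in mesenchyme, had 10.73, 11.03 and 11.30 in deleted samples and 11.21, 11.31 and 11.26 in control samples. In 2 of 3 deleted samples it lay below all controls, while deleted replicate 3 lay among them. The difference of -0.24 ± 0.17 (SE) was the lowest of the 10, with an interval from -0.65 to 0.17. The other Foxc1 probe set averaged 9.43 ± 0.10 in deleted and 9.43 ± 0.50 in control samples (SD, n = 3 each), a difference of 0.00. Foxc2, which shapes lymphatic valves, had 10.38, 9.44 and 10.43 in deleted samples and 10.31, 9.85 and 9.59 in control samples. The difference was 0.17 ± 0.31 (SE), with an interval from -0.57 to 0.90. Foxo1 varied least among arrays of the forkhead factors, with 11.48, 11.27 and 11.44 in deleted samples and 11.37, 11.29 and 11.70 in control samples. The difference of -0.06 ± 0.16 (SE) had an interval from -0.44 to 0.32, and the other 3 Foxo1 probe sets differed by -0.03 to 0.09.

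Of the complex formed by Gata2, Tal1 and Lmo2, Gata2 had 11.90, 11.15 and 11.95 in deleted samples, against 12.11, 11.47 and 11.58 in control samples. Its highest value was a control and its lowest a deleted sample, and the means differed by -0.05 ± 0.27 (SE), with an interval from -0.69 to 0.59. The second Gata2 probe set had the opposite sign, 0.13 ± 0.31 (SE). Tal1 had 10.54, 10.55 and 10.65 in deleted samples and 10.40, 10.56 and 11.18 in control samples. Its difference of -0.14 ± 0.22 (SE), with an interval from -0.65 to 0.38, rested on control replicate 3, and without that sample it was 0.10. Lmo2, which links Tal1 to Gata2 without touching DNA itself, had 12.004, 11.89 and 12.30 in deleted samples and 11.95, 11.98 and 11.99 in control samples. The 3 controls were nearly equal (SD 0.02, n = 3), and the difference was 0.09 ± 0.15 (SE), with the narrowest interval of the 10 factors, from -0.27 to 0.45.

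Nr2f2 had 12.25, 11.53 and 12.72 in deleted samples and 12.41, 12.02 and 11.61 in control samples. Both its highest and its lowest value were deleted samples. The difference was 0.15 ± 0.33 (SE), with an interval from -0.63 to 0.94, and without control replicate 3 it was -0.05. Nr2f2 had 5 further probe sets, whose differences lay between -0.08 and 0.10.

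**Figure D2:**
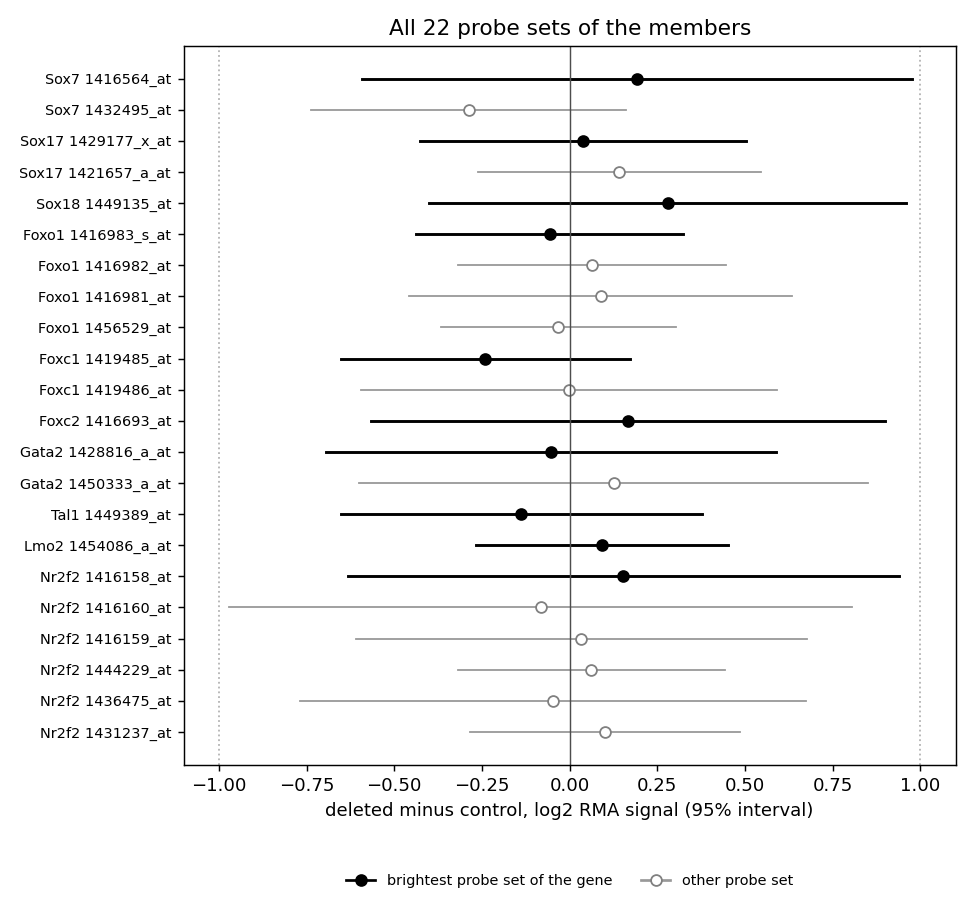
Difference between deleted and control samples (log2 RMA signal) for all 22 probe sets of the factors, with 95% intervals from limma. Filled points are the brightest probe set of each gene, open points the others, dotted lines a fold change of 2 either way, and every interval crosses 0.

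Across the 10 factors the intervals of the main limma fit allowed fold changes between 0.618 and 1.97. A change of 2-fold in either direction thus lay outside the interval of every brightest probe set in this fit. The smaller changes allowed differed by gene, with 0.66 to 1.97 for Sox7 and 0.83 to 1.37 for Lmo2. These bounds rest on the SE of limma. In the unmoderated test with equal variances the SE was 0.41 for Sox7 (0.33 with limma) and 0.12 for Lmo2 (0.15 with limma). The 12 other probe sets differed by -0.29 to 0.14. Of these 12, 6 had the same sign as the brightest probe set of their gene and 6 the opposite sign, so that in 4 genes (Sox7, Foxo1, Gata2 and Nr2f2) the sign depended on the probe set read.

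Over the 6 arrays a factor ranged by 0.41 (Lmo2) to 1.28 (Sox7), beside differences between the genotypes of 0.04 to 0.28 in size. Deleted replicate 2 was the lowest of the 6 arrays for 7 of 10 factors, whereas 17.9% of all genes had their lowest value there, and Sox18, Foxc1 and Tal1 were the exceptions. Deleted replicate 3 was the highest array for 4 of 10 factors and for 11.999% of all genes. Sox7, Sox17, Sox18, Foxc2, Gata2 and Nr2f2 followed a common course that was noticed after the values were seen and was not tested. All 6 lay above their own mean in deleted replicates 1 and 3 and in control replicate 1, and all 6 lay below it in deleted replicate 2 (by 0.33 to 0.67) and in control replicate 3 (by 0.04 to 0.51). Their average deviation was 0.31, -0.52 and 0.40 in deleted samples, against 0.24, -0.11 and -0.32 in control samples. Both groups therefore held high and low arrays for these 6 genes. The course was not particular to them. The endothelial markers had mean deviations of the same signs in all deleted samples and in control replicates 1 and 3. So had the arterial genes and the targets of SOXF, of FOXO1 and of Gata2 and Tal1. For the SOXF targets they were 0.15, -0.17 and 0.07 in deleted samples, against 0.07, 0.01 and -0.13 in control samples. The other lists read below did not have these signs.

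Tal1 and Foxo1 did not follow this course. Control replicate 3 was their highest array, 0.54 and 0.27 above the mean of the gene. For Foxo1 this held for the brightest probe set only. The other Foxo1 probe sets were highest in deleted replicate 1, and a dimmer one was lowest in control replicate 3, at 8.63. Their r with the brightest ran from -0.25 to 0.34. Foxc1 was lowest in deleted replicate 1, by 0.41 below its mean, an array in which Sox18 was at its highest. The other Foxc1 probe set was instead lowest in control replicate 1 (8.87), with 9.37 in deleted replicate 1. Lmo2 was above its mean only in deleted replicate 3, by 0.28.

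**Figure D3:**
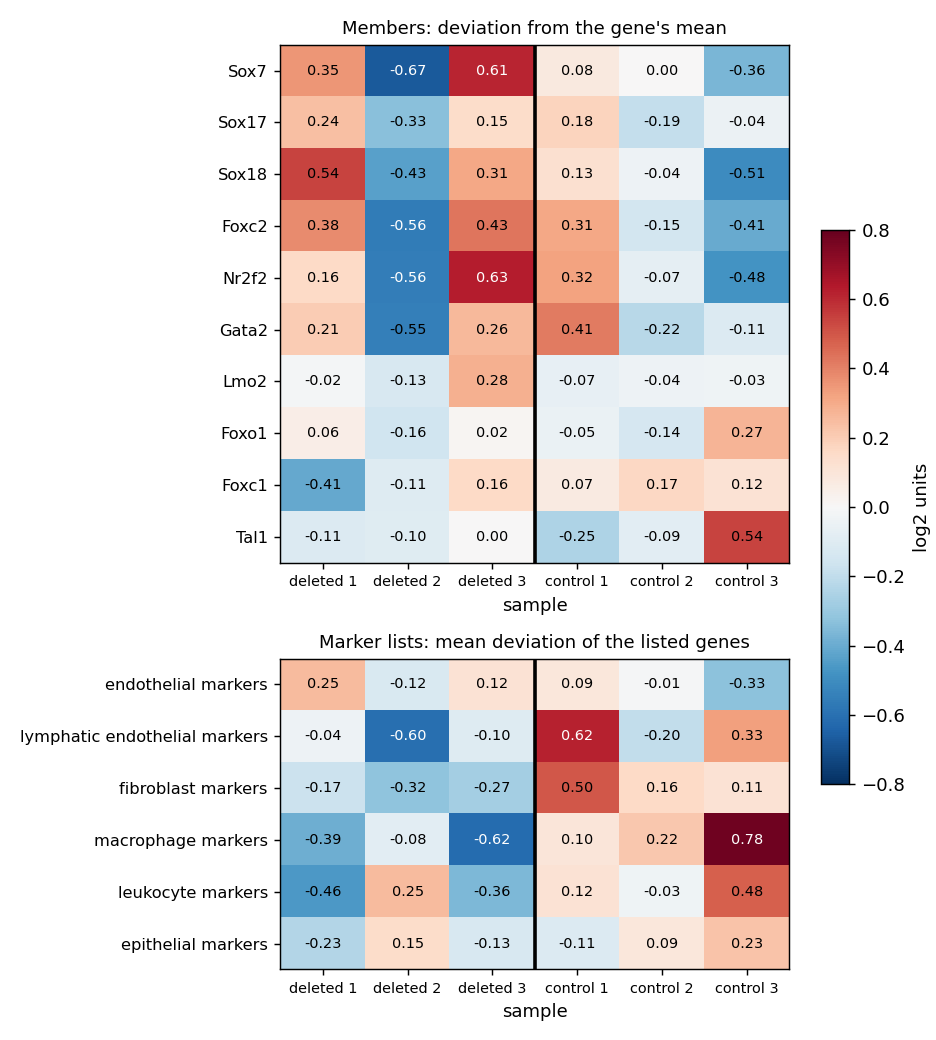
Deviation of each factor from its mean over the 6 arrays (top) and mean deviation of the listed genes of each marker list (bottom), in log2 units, with the 3 deleted samples left of the black line and the 3 control samples right of it. The upper 6 rows are red in deleted 1, deleted 3 and control 1 and blue in deleted 2 and control 3, on both sides of the line.

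The relations within families were measured for 7 pairs over the 6 arrays. Sox7 and Sox18 were the closest, with r = 0.90 (exact permutation p = 0.022, adjusted over the 7 pairs 0.16) and rho = 0.89 (exact permutation p = 0.033, adjusted 0.23). Within genotypes the same pair had r = 0.90, and r was 0.997 without the 2 arrays farthest from the median of Sox7. Sox7 with Sox17 had r = 0.81 (exact permutation p = 0.063, adjusted 0.17) and rho = 0.77 (exact permutation p = 0.10, adjusted 0.24), and r was 0.81 within genotypes and 0.64 without the 2 farthest arrays. Sox17 with Sox18 had r = 0.80 (exact permutation p = 0.071, adjusted 0.17) and rho = 0.77 (exact permutation p = 0.10, adjusted 0.24), with 0.82 within genotypes and 0.96 without the 2 farthest arrays. No pair passed the correction.

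The partners of the Tal1 complex were less alike over the arrays. Lmo2 with Gata2 had r = 0.49 and rho = 0.43 (exact permutation p = 0.31 and 0.42, adjusted 0.55 and 0.59), within genotypes r = 0.55, and without the 2 farthest arrays r = -0.39, so the relation rested on those 2. Tal1 with Lmo2 had r = 0.09 and rho = 0.43 (exact permutation p = 0.75 and 0.42, adjusted 0.80 and 0.59), 0.20 within genotypes and 0.94 without control replicates 1 and 3. Tal1 with Gata2 had r = -0.23 and rho = -0.31 (exact permutation p = 0.73 and 0.56, adjusted 0.80 and 0.66), -0.26 within genotypes and 0.52 without the same 2 arrays. Foxc1 with Foxc2 had r = -0.16 and rho = 0.09 (exact permutation p = 0.80 and 0.92, adjusted 0.80 and 0.92), -0.05 within genotypes and -0.13 without the 2 farthest arrays.

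The factors were also set against markers of the cells a sort could hold. All 12 endothelial markers, among them Pecam1 (which encodes CD31) and the junction cadherin Cdh5, were bright on every array, between 10.56 and 13.48. Pecam1 had 11.93, 11.27 and 11.88 in deleted samples and 11.58, 11.49 and 10.83 in control samples. Cdh5 had 11.47, 10.56 and 11.24 in deleted samples and 11.16, 11.17 and 10.59 in control samples. The mean deviation of the endothelial list was 0.25, -0.12 and 0.12 in deleted samples, against 0.09, -0.01 and -0.33 in control samples, and 11 of 12 markers were higher in deleted samples (none past the test). It was thus lowest in control replicate 3 and in deleted replicate 2, the arrays in which Sox7, Sox18, Foxc2 and Nr2f2 were lowest. In these bulk samples fewer endothelial cells and less RNA per cell cannot be told apart.

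Taken relative to the endothelial markers of the same array, 7 of 10 factors were lower in deleted samples, against 4 without this step. Several of these markers also stand in the lists of targets read below, among them Cdh5 (SOXF targets) and Pecam1 (targets of Gata2 and Tal1). The reference is therefore not independent of the factors. Sox17 then differed by -0.13, Lmo2 by -0.07 and Nr2f2 by -0.01, all turned in sign, Foxc1 by -0.40 and Tal1 by -0.30, and none passed the test. Deleted replicate 2 remained low relative to its endothelial markers, by 0.55 for Sox7, 0.44 for Foxc2, 0.43 for Nr2f2 and 0.42 for Gata2.

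Markers of other cell types also gave signal in this RNA. Pericyte and smooth muscle markers were higher in deleted samples for 7 of 8 genes (median 0.16). Their mean deviation was 0.02 to 0.21 in deleted and -0.32 to 0.11 in control samples. With limma 1 had an unadjusted p under 0.05 and 1 had no overlap between groups, beside 1.79% and 6.07% of all genes. None passed the adjusted test. Adipocyte markers were lower for 4 of 5 measured (median -0.06). The 8 epithelial markers lay between 10.15 and 14.20 on every array. They were lower in deleted samples for 7 of 8 genes (median -0.14, mean deviation -0.23 to 0.15 in deleted and -0.11 to 0.23 in control samples). The exception was Epcam, with 12.50, 12.44 and 12.44 in deleted and 12.51, 12.54 and 11.9997 in control samples, a difference of 0.11. Fibroblast markers were lower in deleted samples for 12 of 12 genes (median -0.48, mean deviation -0.32 to -0.17 in deleted and 0.11 to 0.50 in control samples), among them Pdgfra by -0.59 and Col1a1 by -0.38. Macrophage markers were lower for 10 of 10 (median -0.73, mean deviation -0.62 to -0.08 in deleted and 0.10 to 0.78 in control samples), with Adgre1 by -0.91. At an unadjusted p under 0.05 there were 6 of 12 fibroblast and 5 of 10 macrophage markers, and the groups did not overlap for 8 of 12 and 5 of 10, beside 1.79% and 6.07% of all genes. No gene of either list passed the adjusted test with limma, and the part of these cells in the signal of the factors was not tested. Leukocyte markers, with Ptprc by -0.43, were lower for 5 of 6 and were highest in control replicate 3 (0.48). Macrophage (0.78) and epithelial (0.23) scores were highest there too. That array was also the highest for 2 of 10 factors (Tal1 and Foxo1, brightest probe sets) and for 26.9% of all genes.

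Gata2, Tal1 and Lmo2 also act in mast cells, megakaryocytes and erythroid cells, so the markers of these cells were read beside them. The erythroid factors Gata1 and Klf1 lay between 4.74 and 5.17 and between 4.98 and 5.84 over the 6 arrays, below the median of all probe sets. The platelet genes Pf4 (8.28 to 9.05), Itga2b (7.67 to 8.26) and Gp9 (7.04 to 7.33) lay above it on every array. The platelet gene Gp1bb (5.53 to 7.01) lay below it on every array. The platelet gene Ppbp (5.69 to 7.53) and the erythroid gene Alas2 (6.18 to 7.33) reached from below it to above it. Of 7 mast cell markers 5 lay below that median, with Ms4a2, a chain of the IgE receptor, between 3.66 and 4.67. The other 2 were Kit (10.13 to 10.89) and Hdc (8.17 to 9.80). Mast cell markers were lower for 5 of 7 (median -0.19, mean deviation -0.14 to -0.03 in deleted and 0.04 to 0.13 in control samples). With limma 1 of these 7 had an unadjusted p under 0.05, beside 1.79% of all genes, and none passed the adjusted test. Their part in the signal of the factors was not tested. Megakaryocyte and erythroid markers were lower for 5 of 8 (median -0.05, mean deviation -0.36 to 0.28 in deleted and -0.07 to 0.18 in control samples). Lymphatic endothelial markers were lower for 6 of 6 measured (median -0.50, mean deviation -0.60 to -0.04 in deleted and -0.20 to 0.62 in control samples). At an unadjusted p under 0.05 with limma there was 1 of these lymphatic markers, beside 1.79% of all genes, and none passed the adjusted test. Their master factor Prox1, a partner of Nr2f2, had 9.35, 9.44 and 10.05 in deleted samples and 10.72, 9.999 and 9.20 in control samples.

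Ets2 itself, a bright probe set in these sorted samples, had 14.43, 14.30 and 14.50 in deleted samples and 14.48, 14.41 and 14.26 in control samples, a difference of 0.02. Which cells of the samples gave this signal was not tested. Since Cre was directed to fibroblasts, this does not check the deletion. Control replicate 3 stood apart in RNA quality, with a 3' minus 5' signal of 1.67 for Actb and 1.31 for Gapdh, against 0.99 to 1.29 and 0.75 to 1.01 on the other 5 arrays. Its part in the high values of Tal1 and of the brightest Foxo1 probe set on that array was not tested.

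Partners, relatives and known targets of the factors were counted in 11 lists holding 126 measured genes. None passed the adjusted test with limma, in either direction, in any list. At an unadjusted p under 0.05 there was 1 gene (0.794% of the 126, beside 1.79% of all genes), and for 5 genes the groups did not overlap (3.97%, beside 6.07% of all genes). Their median difference was 0.01, and 58 of 126 were lower in deleted samples. The gene at an unadjusted p under 0.05 was the forkhead factor Foxi1, with 10.28, 10.39 and 10.37 in deleted samples against 9.73, 10.23 and 9.91 in control samples. The other 4 without overlap were Lmo4, Gata4, Sox30 and Ackr1. Of these 5, Foxi1, Gata4 and Sox30 were singled out after their values were seen, and Gata4 and Sox30 were dim (4.97 to 5.38 and 3.38 to 3.81).

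Of 15 partners of the Tal1 complex, 8 were lower, with a median of -0.04. Lmo4, a LIM-only relative of Lmo2, had 10.39, 10.70 and 10.61 in deleted samples and 10.80, 10.84 and 11.01 in control samples, a difference of -0.31 ± 0.15 (SE). Tcf3, an E protein that dimerizes with Tal1, differed by 0.31 ± 0.25 (SE), and its groups overlapped. Of the 4 Id proteins, which keep E proteins from DNA, 1 was lower and the median was 0.15. Id1 had 10.71, 10.19 and 11.13 in deleted samples and 10.38, 10.16 and 9.59 in control samples, a difference of 0.63 ± 0.29 (SE). Id3 differed by 0.30 ± 0.20 (SE). Both were lowest in control replicate 3 and highest in deleted replicate 3.

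Among relatives, 4 of 9 genes in the list of further GATA and NR2F genes, which also holds the GATA cofactors Zfpm1 and Zfpm2, were lower (median 0.00), namely Gata1, Gata3, Gata4 and Zfpm1. The largest differences were those of Gata6 (0.44 ± 0.20, difference ± SE) and Gata3, a luminal factor of the mammary epithelium (-0.33 ± 0.19). Of 16 further SOX genes, 10 were lower (median -0.04). Sox2 differed by 0.71 ± 0.49 (SE) through deleted replicate 2, at 5.04, while the other 5 arrays lay between 2.97 and 3.19. Sox10 had 11.52, 12.41 and 11.56 in deleted samples and 11.61, 12.45 and 13.30 in control samples, a difference of -0.62 ± 0.44 (SE), or -0.20 without control replicate 3. Of 29 measured further FOX genes, 15 were lower (median -0.02). Foxa3 and Foxp4 differed by -0.51 ± 0.35 and -0.49 ± 0.39 (SE), each mostly through control replicate 3 (6.14 and 11.14), and without it Foxa3 differed by -0.09 and Foxp4 by 0.01.

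**Figure D4:**
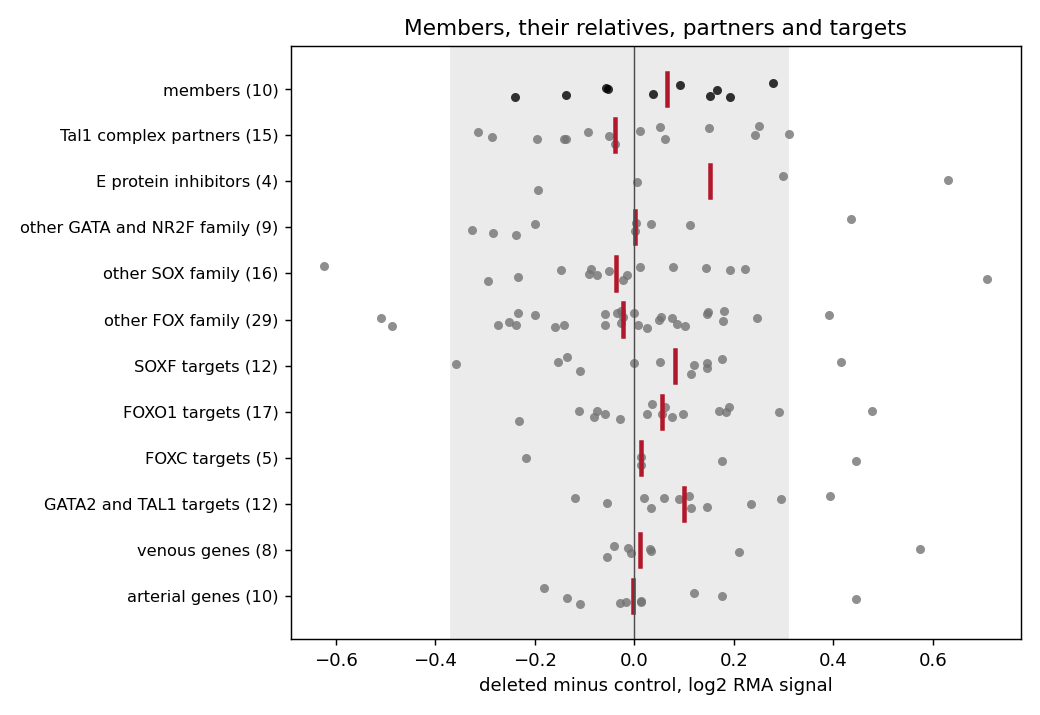
Difference between deleted and control samples (log2 RMA signal) for the 10 factors and for the genes of the 11 lists, 1 point a gene with the number of genes in parentheses, red bars the list medians and the gray band the 5th to 95th percentile of all genes (-0.37 to 0.31). All list medians lie between -0.04 and 0.15.

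Known targets of the factors were read likewise. Of 12 SOXF targets, 5 were lower (median 0.08), with the adhesion receptor Vcam1 at 0.42 ± 0.26 and Prox1 at -0.36 ± 0.39 (difference ± SE). Without control replicate 1 Prox1 differed by 0.01. Of 17 FOXO1 targets, 6 were lower (median 0.06). Pdk4, a kinase that spares glucose, had 11.36, 10.74 and 10.43 in deleted samples and 10.90, 10.09 and 10.10 in control samples, a difference of 0.48 ± 0.31 (SE). Gadd45a, a growth arrest gene, differed by 0.29 ± 0.43 (SE), and by -0.10 without control replicate 3. Of 5 FOXC targets, 1 was lower (median 0.01), namely the integrin chain Itgb3 at -0.22 ± 0.21, while the Notch effector Hey2 differed by 0.45 ± 0.31 through deleted replicate 3 (9.53, against 8.23 to 8.45 on the other 5 arrays). Of 12 targets of Gata2 and Tal1, 2 were lower (median 0.10), and the largest differences were those of Pecam1 (0.39 ± 0.27) and the sialomucin Emcn (0.30 ± 0.21), which also stand among the endothelial markers.

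Of 8 venous genes, the class that Nr2f2 maintains, 4 were lower (median 0.01). Ackr1, the chemokine receptor of venules, had 11.21, 11.10 and 11.83 in deleted samples and 11.03, 10.96 and 10.42 in control samples, a difference of 0.58 ± 0.25 (SE) without overlap between the groups. Il1r1 differed by 0.21 ± 0.32 (SE), and by -0.18 without deleted replicate 3. Of 10 arterial genes, 5 were lower (median 0.00), with Hey2 as above and Gja5, a connexin of arterial endothelium, at -0.18 ± 0.15 (SE) and dim on all arrays (5.11 to 5.58).

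The gene closest to each factor over the 6 arrays was sought among 11287 genes at or above the median signal. The highest r lay between 0.989 and 0.998 over the 10 factors, and none is read as a relation between genes. The closest genes were Klhl2 for Sox7, Zfp280b for Sox17, Fbxl7 for Sox18, Six5 for Foxo1, 4930594M22Rik for Foxc1, Prkci for Foxc2, Scml4 for Gata2, Mgmt for Tal1, Parg for Lmo2 and Hnrnpdl for Nr2f2.

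Promoters of 5 factors were matched in a RefSeq table (GRCm38.p6), namely Foxo1, Foxc1, Gata2, Tal1 and Nr2f2, in 7 windows of 300 bases (250 before and 50 after the start of transcription). The windows were searched on both strands for short letters that these factors are known to bind. ETS factors were given CAGGAA in one search and CCGGAA in a further one. GATA factors were given AGATAA and, as another form, TGATAA. The E-box of Tal1 and its partners was read as CAGATG and, in a palindromic form, as CAGCTG. SOX factors were given ACAAAG and, as another form, ACAATG. Forkhead factors were given GTAAACA, and NR2F factors the single repeat AGGTCA. The stretches below are shown because Foxc1 and Tal1 hold letters of an ETS factor and of a GATA factor, and because Gata2 and Nr2f2 are the matched members of the 6 that moved together over the arrays. Each runs 5′ to 3′ on the strand of the gene, with the letters found in capitals.
Foxc1, chr13:31806536-31806635, plus strand: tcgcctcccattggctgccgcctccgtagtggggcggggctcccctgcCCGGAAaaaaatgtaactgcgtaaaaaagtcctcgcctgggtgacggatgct
Tal1, chr4:115056176-115056275, plus strand: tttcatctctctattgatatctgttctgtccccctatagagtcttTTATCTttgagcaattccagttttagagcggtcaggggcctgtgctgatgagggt
Gata2, chr6:88193791-88193890, plus strand: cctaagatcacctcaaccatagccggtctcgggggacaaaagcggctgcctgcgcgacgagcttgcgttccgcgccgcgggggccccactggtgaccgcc
Nr2f2, chr7:70366747-70366846, minus strand: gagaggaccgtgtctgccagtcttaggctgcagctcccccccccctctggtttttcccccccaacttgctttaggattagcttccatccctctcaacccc

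In Foxc1, CCGGAA began at position -62 from the start of transcription, and 14.9% of all 32851 promoter windows held these letters on either strand. The other ETS letters, CAGGAA, were in none of the 7 windows and in 30.6% of all windows. In Tal1, the GATA letters lay on the opposite strand (TTATCT as printed) at position -205, and 11.2% of all windows held AGATAA, while TGATAA was in none of the 7 and in 9.05% of all. E-box letters were found after the start of transcription in the same Tal1 window (CAGATG, in 17.2% of all windows) and in the second Gata2 window (CAGCTG, in 16.3% of all windows). No window of the 7 held the SOX, forkhead or NR2F letters, which 18.7% and 12.6% (SOX), 3.65% (forkhead) and 16.3% (NR2F) of all windows did. The windows of Foxc1 and Gata2 were rich in G and C (67.3% in Foxc1 and 69.3% in the Gata2 window printed above, against a median of 52.7% in all windows), and that of Nr2f2 held 49.7%. These matches describe letters only.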

How the data were processed

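RNA of 6 sorted samples, 3 deleted and 3 control, was hybridized to Affymetrix mouse arrays after amplification, 1 array a sample. The authors deposited log2 values from RMA (Robust Multichip Average), a procedure of background correction, quantile normalization and summary of the probes. The sources used here give no version of it. RMA narrows differences of dim probe sets, and the level of one probe set cannot be set against that of another as an amount of RNA. The places of markers above or below the median signal therefore describe signal only. Array medians lay between 7.02 and 7.07, so nothing was rescaled. Of 45101 probe sets, 64 array controls were left out. The platform annotation named 1 gene for 34945 probe sets, several for 932 and none here for 9160, and 34741 of the first were matched to RefSeq.

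Differences were fitted by lmFit and eBayes (limma 3.58.1, R 4.3.3) with no covariates and two-sided tests, and adjusted by the Benjamini-Hochberg method over 45037 probe sets at 0.05. Calls were also counted at the thresholds of the study's methods (fold change over 2, unadjusted p under 0.05). The limma step was tested on simulated data. Marker scores are the mean deviation of the listed genes from their means over the 6 arrays. Correlations used exact permutation of the 6 arrays (Python 3.11.15, scipy 1.17.1). The number of arrays limits the precision. At most 0.218% of the values were identical between any 2 arrays.

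The members and the gene lists were chosen with earlier results of these data known. The text names all members, the 2 genes of each list with the largest difference, Ets2, 8 markers and the gene most like each member. Gata1, Klf1, Pf4, Itga2b, Gp9, Gp1bb, Ppbp, Alas2, Ms4a2, Kit, Hdc and Zfpm1 were named after their values were seen, as were Foxi1, Gata4 and Sox30. The alternatives comprised other priors and unmoderated tests, a filter on dim probe sets (median signal), array weights, other centering and scaling, a block on the identifier number, the mean over the probe sets of a gene, and leaving out each array in turn. Protein sequences were not used here.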

Additional observations from a re-analysis of the deposited data

How the results depend on the processing

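The count of factors past the adjusted p was 0 in all 17 alternatives (the lowest and the highest without 1 array were both 0), and so was the count past a fold change of 2. The adjusted p of a factor was never below 0.635. At an unadjusted p under 0.05 the count was 0 to 2 when 1 array was left out, the 2 being Sox7 and Sox18 without deleted replicate 2, where 3.24% of all genes passed. Of 170 recomputed differences of single factors, 29 changed sign. The number of lower factors was 1 with array weights, 7 relative to the endothelial markers and 7 with the identifier number as a fixed block, and 2 (without deleted replicate 2) to 9 (without deleted replicate 3) when 1 array was left out. The median difference lay between -0.071 and 0.21 when 1 array was left out.

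Array weights turned Foxo1 to 0.10, Gata2 to 0.21 and Tal1 to 0.015. This setting gave control replicate 2 a weight of 8.32 and the other arrays 0.38 to 0.99, so its control mean rested mostly on 1 array. Relative to the endothelial markers, Sox17 was -0.13, Lmo2 -0.072 and Nr2f2 -0.011. The mean of all probe sets of a gene gave -0.048 for Sox7, 0.016 for Foxo1 and 0.036 for Gata2. Without 1 array, the difference ranged from -0.064 to 0.58 for Sox7, -0.074 to 0.21 for Sox17, -0.14 to 0.067 for Foxo1, -0.0074 to 0.49 for Foxc2, -0.20 to 0.21 for Gata2, -0.30 to 0.097 for Tal1, -0.026 to 0.18 for Lmo2 and -0.12 to 0.47 for Nr2f2. The cause was not tested. Sox18 (0.28) and Foxc1 (-0.24) kept their sign in all 17 alternatives but not their size. Without 1 array Sox18 ranged from 0.078 (without deleted replicate 1) to 0.57 (without deleted replicate 2) and Foxc1 from -0.38 to -0.094, and relative to the endothelial markers they were 0.12 and -0.40. Of 88 recomputed list medians 72 moved by less than the spread between replicates, and no list gene was called in any of them.

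Samples 1 and 2 of each group share an identifier number across the groups. The deviations of these pairs correlated at 0.17 and -0.02. Whether the number marks related animals is not given in the labels, and it was not used to pair samples. Replicate 3 of each group has a number of its own, so a fixed block leaves both these arrays without weight as well. With the number as a fixed replicate block, 0 probe sets were called, as without it, and Sox7 was -0.20, Sox17 -0.039, Foxo1 0.045, Foxc2 -0.17, Tal1 0.063, Lmo2 -0.019, Nr2f2 -0.33, Sox18 0.010, Foxc1 -0.38 and Gata2 -0.27.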
